A study of Mus musculus with 12 samples.

Results

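The germline and meiosis genes described here are 40 autosomal mouse genes, listed by name, whose products make piRNAs, pair and recombine chromosomes in meiosis, regulate RNA in germ cells or build sperm. For each gene, the CpGs used lay between 1 kb outside one gene end and 1 kb outside the other (mm10) and had at least 10 methylation calls, both strands summed, in each of the 12 libraries. Genes with at least 3 such CpGs were kept, which left 36 of the 40. Dnd1, Stk31, Rec8 and Dmc1 had fewer and were not measured. The same rule kept 16535 of 21627 protein-coding genes on the autosomes and X. The 36 genes held 1099 CpGs, and each of these was covered by 95.5 calls per library in the median.

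The cells were CMM cells, a GFP-marked mouse model of inv(16) acute myeloid leukaemia, given intravenously to C57BL/6 mice. All 12 libraries share this leukaemia and this host strain. Dosing began once leukaemia cells made up about 1% in blood and consisted of 3 intravenous doses, on alternate days, of PBS or of CpG-STAT3dODN, an oligonucleotide that joins a CpG motif to a STAT3 decoy. Spleens were taken 1 day after the last dose. The 3 groups of 4 libraries were GFP-positive cells of PBS mice (PBS), GFP-positive CD11b-negative cells of treated mice (CD11b-negative) and GFP-positive CD11b-positive cells of treated mice (CD11b-positive). CD11b is a surface integrin of maturing myeloid cells. Since the PBS cells were not sorted by CD11b, effects of the treatment and of the CD11b sort cannot be told apart in either comparison with PBS. Separate animals per library are not stated in the labels, and the p-values given therefore cover the spread among these libraries only, which may be technical.

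Germline genes are kept off in body cells in several ways. The PRC1.6 complex, with the DNA-binding factors MGA and E2F6, represses many of them, and DNA methylation of CpG-rich promoters holds a subset silent from early development onward. MGA partners with MAX at the E-box CACGTG, and E2F6 binds GC-rich sites that contain GCGGGA. Loss of promoter methylation lets some of these genes be transcribed in tumours, where they are known as cancer-testis genes. The files hold no RNA or protein measurement, so whether the genes were silent in these cells was not measured, and only their methylation is described.

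The promoters of 9 of the genes are printed first, as examples of each state seen at the starts and for the E-box CpGs described further on. The promoter intervals of Brdt, Spata25, Tex14, Tex19.1, Syce1, Mov10l1, Stag3 and Tdrd9, which also rose in CD11b-positive cells, held no measured CpG, so their changes were measured outside these intervals. Each sequence runs 5′ to 3′ on the gene's own strand, from 250 bases before to 50 bases after the annotated start (RefSeq, GRCm38.p6, the mm10 build), and capitals mark the CpGs measured in all 12 libraries. The first 3 are Ddx4 (chr13:112652261-112652560, minus strand, 33 of 38 CpGs measured), Slc25a31 (chr3:40708621-40708920, plus strand, 20 of 22) and Sycp1 (chr3:102936051-102936350, minus strand, 6 of 21), shown as promoters that were highly methylated in every group. Hormad1 (chr3:95559427-95559726, plus strand, 13 of 24), Hormad2 (chr11:4441033-4441332, minus strand, 9 of 16), Tex101 (chr7:24672001-24672300, minus strand, 15 of 19) and Spata46 (chr1:170308569-170308868, plus strand, 3 of 4) are shown as promoters that were partly methylated in PBS and higher in CD11b-positive cells. Smc1b (chr15:85131908-85132207, minus strand, 17 of 29) is shown as a promoter that was lower there. Ddx25 (chr9:35558421-35558720, minus strand, 26 of 41) is shown as an unmethylated promoter.
Ddx4: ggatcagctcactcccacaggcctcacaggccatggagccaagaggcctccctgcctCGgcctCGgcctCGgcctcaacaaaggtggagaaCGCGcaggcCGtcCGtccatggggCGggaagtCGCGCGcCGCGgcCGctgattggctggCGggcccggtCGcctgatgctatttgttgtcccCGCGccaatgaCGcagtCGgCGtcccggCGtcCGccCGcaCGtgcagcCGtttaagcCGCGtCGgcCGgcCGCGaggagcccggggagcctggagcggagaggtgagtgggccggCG
Slc25a31: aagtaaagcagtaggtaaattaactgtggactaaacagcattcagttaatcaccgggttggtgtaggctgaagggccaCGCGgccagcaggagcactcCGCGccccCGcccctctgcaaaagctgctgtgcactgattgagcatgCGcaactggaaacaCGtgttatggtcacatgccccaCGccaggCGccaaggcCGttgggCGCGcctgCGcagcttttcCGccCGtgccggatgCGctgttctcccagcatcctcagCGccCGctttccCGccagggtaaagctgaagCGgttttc
Sycp1: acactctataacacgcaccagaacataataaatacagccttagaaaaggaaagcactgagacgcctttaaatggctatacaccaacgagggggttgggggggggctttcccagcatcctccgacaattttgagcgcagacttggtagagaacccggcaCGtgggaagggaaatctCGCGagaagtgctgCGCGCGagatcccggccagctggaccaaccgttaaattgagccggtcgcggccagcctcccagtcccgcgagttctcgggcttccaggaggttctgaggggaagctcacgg
Hormad1: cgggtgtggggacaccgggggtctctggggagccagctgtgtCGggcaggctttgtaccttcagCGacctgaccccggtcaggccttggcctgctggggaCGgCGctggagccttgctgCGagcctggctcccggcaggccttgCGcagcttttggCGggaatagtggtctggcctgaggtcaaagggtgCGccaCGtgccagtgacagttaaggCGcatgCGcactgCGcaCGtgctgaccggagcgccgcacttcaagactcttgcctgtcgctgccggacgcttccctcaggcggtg
Hormad2: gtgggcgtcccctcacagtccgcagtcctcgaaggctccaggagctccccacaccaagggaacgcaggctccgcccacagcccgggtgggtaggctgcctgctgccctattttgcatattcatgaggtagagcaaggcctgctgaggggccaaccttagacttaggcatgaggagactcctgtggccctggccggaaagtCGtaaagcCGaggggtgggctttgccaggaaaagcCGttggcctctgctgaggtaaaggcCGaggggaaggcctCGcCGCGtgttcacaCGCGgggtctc
Tex101: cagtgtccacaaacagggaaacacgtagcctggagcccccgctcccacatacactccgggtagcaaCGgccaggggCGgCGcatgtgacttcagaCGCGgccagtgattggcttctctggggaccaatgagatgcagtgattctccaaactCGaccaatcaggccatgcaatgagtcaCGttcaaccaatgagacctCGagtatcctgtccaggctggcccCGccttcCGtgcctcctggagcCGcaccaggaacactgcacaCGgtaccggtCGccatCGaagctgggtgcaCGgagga
Spata46: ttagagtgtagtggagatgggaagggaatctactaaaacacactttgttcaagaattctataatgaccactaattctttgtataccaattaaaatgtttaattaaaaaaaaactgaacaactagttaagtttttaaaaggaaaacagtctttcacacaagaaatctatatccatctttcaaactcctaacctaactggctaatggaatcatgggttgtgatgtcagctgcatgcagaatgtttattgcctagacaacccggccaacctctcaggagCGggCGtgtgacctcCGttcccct
Smc1b: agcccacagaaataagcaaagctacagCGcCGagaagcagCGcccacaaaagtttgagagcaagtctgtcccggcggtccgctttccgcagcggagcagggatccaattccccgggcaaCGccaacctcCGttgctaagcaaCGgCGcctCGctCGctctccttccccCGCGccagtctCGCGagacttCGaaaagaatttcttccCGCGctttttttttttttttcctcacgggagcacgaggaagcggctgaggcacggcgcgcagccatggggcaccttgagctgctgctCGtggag
Ddx25: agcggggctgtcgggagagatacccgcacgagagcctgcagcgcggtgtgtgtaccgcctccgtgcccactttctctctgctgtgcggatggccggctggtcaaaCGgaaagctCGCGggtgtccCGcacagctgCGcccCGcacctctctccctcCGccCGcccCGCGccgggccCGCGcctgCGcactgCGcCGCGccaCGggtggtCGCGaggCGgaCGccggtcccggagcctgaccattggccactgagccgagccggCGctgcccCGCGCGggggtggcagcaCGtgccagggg

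Total calls per library ranged from 112671408 to 157223205. Library 2 of the CD11b-negative group and library 2 of the CD11b-positive group stood apart from the other 10. Calls on 8 single-copy Y genes were 39.2 and 40.0 ppm of autosomal calls in these libraries and 5.33 to 24.2 ppm in the others, and mean methylation at the starts of X genes was 12.8% and 12.5% against 29.7% to 43.7%. Among the germline genes, CD11b-negative library 2 was the highest of its group in 26 of 36 and CD11b-positive library 2 in 24 of 36, against 68.7% and 59.99% of all genes. The mean level over the 36 genes was 58.0% to 60.4% in the PBS libraries. It was 60.2% to 61.9% in CD11b-negative libraries 1, 3 and 4 and 72.1% in library 2. It was 66.3% to 73.0% in the CD11b-positive libraries, again highest in library 2. Y calls were also higher in the CD11b-positive group (23.2 to 40.0) than in PBS (5.33 to 18.1), so they moved with the comparison, and what part they have in the differences was not tested beyond the fit with Y calls as a term, given below.

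**Figure D1:**
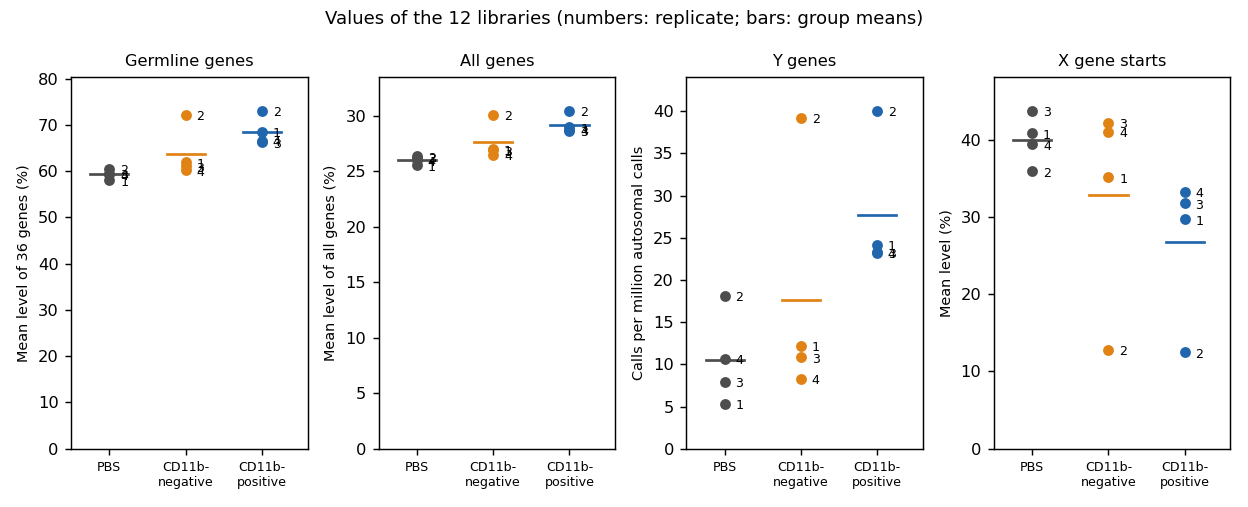
Values per library in the 3 groups, 1 point per library, with the mean level over the 36 genes and the library measures described in the text on the vertical axes (percent, or Y calls in ppm of autosomal calls). Library 2 of both treated groups has the highest mean level of its group, 72.1% and 73.0%, and the most Y calls.

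In PBS cells the germline genes were far more methylated than most genes, but they were not uniformly methylated. The level of a gene is the mean over its CpGs of the share of calls that were methylated, and errors are SDs over the 4 libraries of a group. The median level over the 36 genes was 65.7% in PBS, 73.2% in CD11b-negative and 79.5% in CD11b-positive cells, against 18.8%, 20.1% and 20.6% over all 16535 genes. In PBS, 12 of the 36 genes were above 80%, 18 lay between 20% and 80%, and 6 were below 20%. Of all genes, 491 were above 80%, 7517 lay between and 8527 were below 20%.

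The contrast with other genes was sharpest around the start. The window used was 1 kb on each side of the most upstream start listed among the annotated promoters. For Piwil2, Dmrt1, Meiob, Spo11 and Tex15, whose start is not listed there, it was 1 kb on each side of the gene end with more CpGs. A listed start can lie inside the gene. That of Stag3 is at 138280509 in a gene that begins at 138272514, and that of Dmrtb1 (minus strand) at 107684230 in a gene that reaches 107704011. In this window 31 of the germline genes had 3 or more CpGs. 12 were above 80% in PBS, 12 lay between 20% and 80%, and 7 were below 20%, whereas 11348 of all 13705 genes were below 20% and 226 were above 80%. A list named for methylated genes thus held 7 windows, of 31 measured, that were below 20%: those of Zpbp2, Prdm9, Meiob, Ddx25, Tex15, Stag3 and Spata25. Not all of these show an unmethylated start of the gene itself. For Meiob and Tex15 the window is a gene end, and those of Ddx25 and Stag3 overlap Pus3 and Gpc2. The measured Spata25 CpGs lie 864 to 964 bases after its start.

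The most methylated starts in PBS belonged to Ddx4, Sycp2 and Dpep3. Ddx4, the Vasa RNA helicase of germ cells (chr13:112598333-112652633, minus strand), was at 97.2%, 96.9%, 96.6% and 96.7% in the PBS libraries, 96.5%, 96.5%, 97.4% and 97.0% in the CD11b-negative ones and 95.1%, 95.7%, 96.8% and 96.0% in the CD11b-positive ones. The groups overlapped, and the difference between CD11b-positive and PBS was -0.938 points (standard error 0.374, adjusted p = 0.0514). Sycp2, a protein of the axial element on which meiotic chromosomes are organised (chr2:178345295-178407776), was at 94.0% ± 0.901, 93.6% ± 1.76 and 92.2% ± 3.53 in the 3 groups. Dpep3, a testis dipeptidase of the cell surface (chr8:105973520-105979419), was at 93.5% ± 0.941, 94.7% ± 1.59 and 95.9% ± 0.858. The group means of these 3 genes lay between 92.2% and 96.9%, and each gene's groups lay close together. Slc25a31, the ADP/ATP carrier of germ cell mitochondria (90.6% in PBS), Rpl10l, a ribosomal protein retrogene (90.2%), Sycp1, the transverse filament of the synaptonemal complex (89.7%), and Mael, a piRNA pathway protein (89.1%), followed below them.

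The least methylated starts were those of Zpbp2, Meiob and Prdm9. Zpbp2, a sperm protein that binds the zona pellucida (chr11:98551097-98558665), was at 0.190%, 0.233%, 0% and 0.632% in the PBS libraries and at 0.480% ± 0.433 in CD11b-positive cells. The measured end of Meiob, a single-strand DNA-binding protein of meiotic recombination (chr17:24804301-24839788), was at 0.518% ± 0.272 and 0.935% ± 0.414. Prdm9, the histone methyltransferase that places recombination hotspots (chr17:15543072-15564374), was at 0.570% ± 0.170, 0.696% ± 0.489 and 0.780% ± 0.421. The PBS libraries of the 3 genes overlapped, so their order is not resolved. The start of Ddx25, a testis RNA helicase (chr9:35541848-35558470), was at 1.26%, 1.45% and 1.29%, and its window also holds the start of Pus3, so the level cannot be assigned to either gene.

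**Figure D2:**
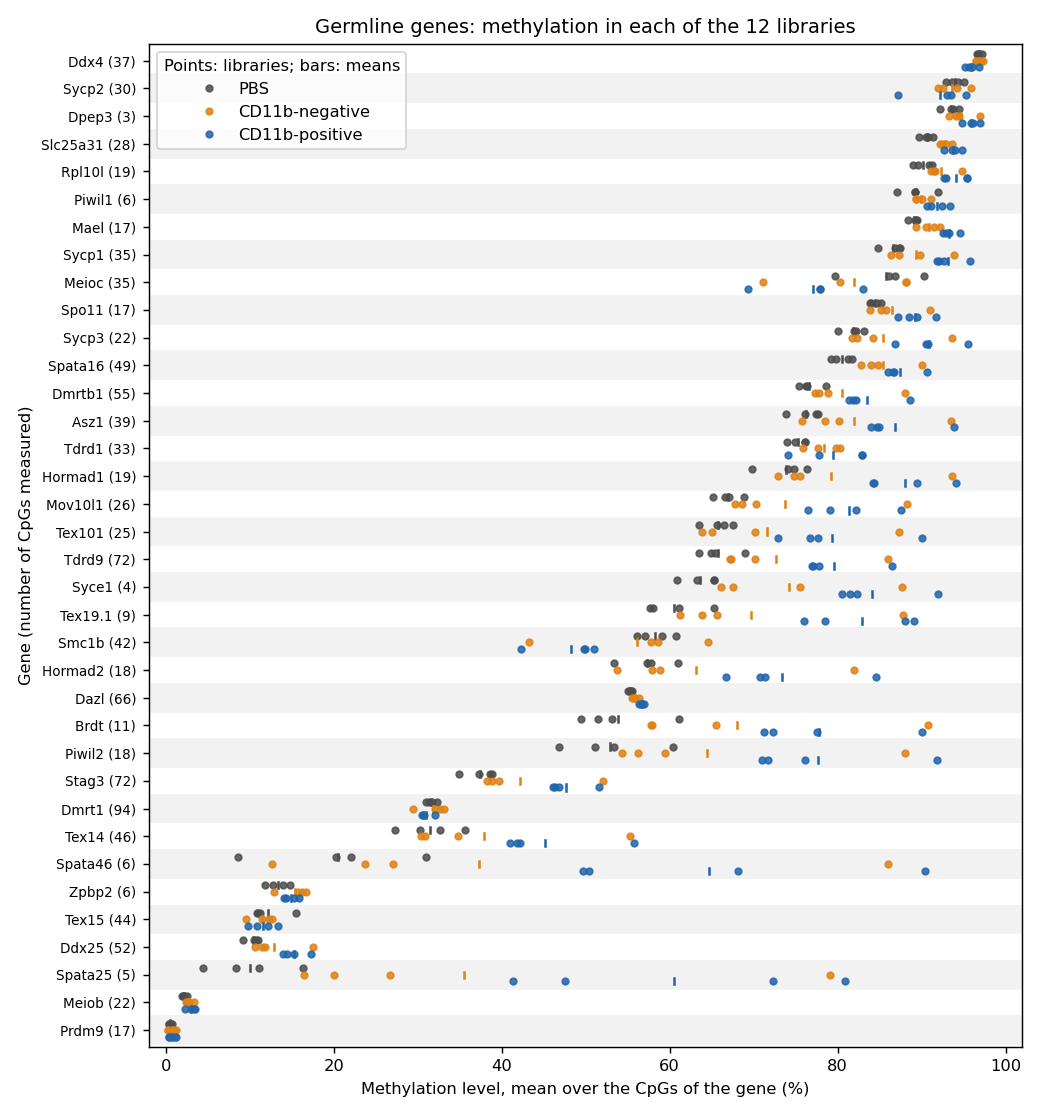
Methylation level of each of the 36 genes (percent of calls, mean over CpGs), 1 point per library and colour per group, with genes ordered by their PBS mean and bars at the group means. Ddx4 (96.9%), Sycp2 (94.0%) and Dpep3 (93.5%) have the highest PBS means, Prdm9 and Meiob lie near 0, and Spata25 and Spata46 show the widest gap between PBS and CD11b-positive libraries.

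A mean over a gene can join stretches of opposite state, and Dazl was the clearest case. Dazl, an RNA-binding protein that promotes translation in germ cells (chr17:50279393-50293620, minus strand), had a level of 55.3% ± 0.193 in PBS, 55.9% ± 0.356 in CD11b-negative and 56.7% ± 0.234 in CD11b-positive cells. The 38 CpGs from position -609 to position 471, counted from its start, averaged 94.8% ± 0.367 in PBS, and single CpGs lay between 70.6% and 99.3%. The CpG at 490 was at 19.3% ± 3.74, and the 27 CpGs from 616 to 845 averaged 1.07% ± 0.360, none above 5.52%. The switch from methylated to unmethylated thus lay between 471 and 616 bases after the start. It stayed in place in the other groups: the first stretch averaged 95.5% and 96.4% and the last 1.19% and 1.92% in CD11b-negative and CD11b-positive cells. No Dazl CpG passed the test in any comparison.

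Stag3 and Tex14 were also mosaics. Stag3, a cohesin subunit of meiosis (chr5:138272514-138312397), shares its start region with Gpc2, and 28 CpGs from position -905 to position -307 were at 1.04% ± 0.0769 in PBS and 1.52% ± 0.198 in CD11b-positive cells. The 10 CpGs from 380 to 561 bases after the start were at 30.0% ± 8.73 in PBS and 70.4% ± 12.5 in CD11b-positive cells, and 6 of them passed the test there. In Tex14, a protein of the bridges between germ cells (chr11:87405013-87555823), whose window also holds the start of Rad51c, the 10 CpGs from 50 to 316 bases after the start were at 19.6% ± 10.5 in PBS and 58.8% ± 20.1 in CD11b-positive cells, and all 10 passed. A further stretch of 8 CpGs inside Tex14, 37784 to 37812 bases after the start, was at 0.709% and 0.367%. In Ddx25, the start was unmethylated while 7 CpGs from 5564 to 5774 bases downstream were at 55.9% in PBS and 78.2% in CD11b-positive cells.

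**Figure D3:**
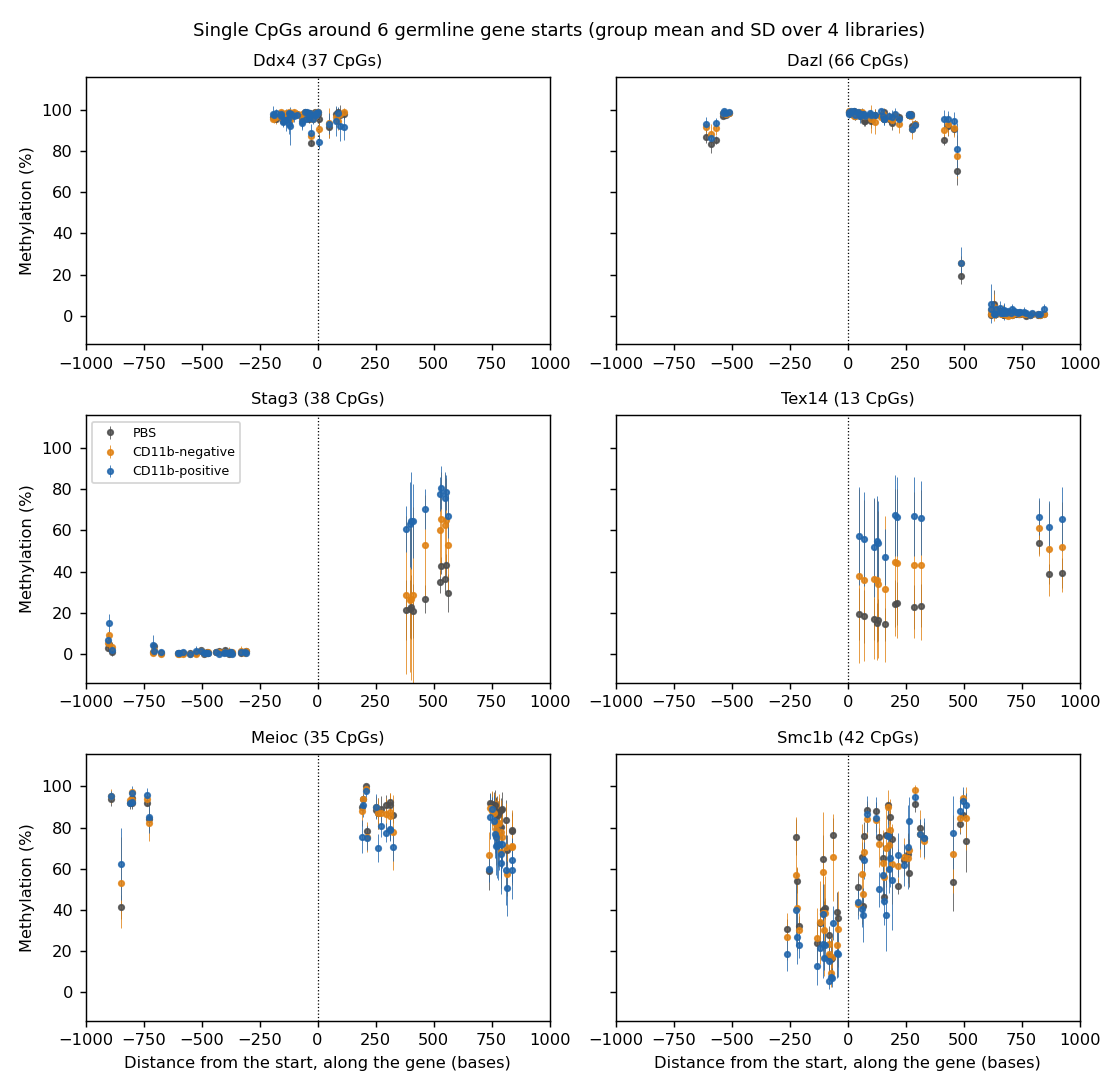
Methylation of each measured CpG (percent, mean of 4 libraries per group) against its distance in bases from the start of the gene, for chosen genes. The Dazl CpGs drop from above 70% at 471 bases to below 6% from 616 bases after the start in PBS, and the other groups follow, while the CD11b-positive points of Tex14 and Stag3 lie above the PBS points after the start.

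In 4 methylated germline promoters with a measured E-box, the least methylated measured CpG lay in that E-box, CACGTG. The sequence was found in 15 of the 34 promoters in the table (44.1%) and in 1383 of all 17273 promoters of the same length (8.01%). The palindrome reads alike on both strands. GCGGGA, searched on both strands, was found in 17 (50%) against 4505 (26.1%). Both motifs contain a CpG, and the germline promoters were richer in CpGs, with a median of 18.5 against 14 over all promoters. The median ratio of observed to expected CpGs was 0.693 against 0.586. What part this has in the motif shares was not tested. No match of one motif overlapped a match of the other in these promoters, and 8 promoters held both. Only 6 of 20 CACGTG matches had a measured CpG. The promoters looked at were those with a PBS mean above 50% and at least 5 measured CpGs, and this comparison was chosen after the values were seen, so it is a description with no test.

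Ddx4, Hormad1, Slc25a31 and Sycp1 met that rule, and in each of them the lowest CpG of the promoter in PBS was the one in caCGtg. In Slc25a31, the CpG of the E-box at position -91 was at 58.7%, 73.6%, 58.7% and 58.8% in the PBS libraries, whereas the other measured CpGs of the promoter averaged 96.0%. It was at 81.7%, 81.3%, 79.2% and 81.5% in CD11b-negative and 87.0%, 82.5%, 86.4% and 78.4% in CD11b-positive libraries, so PBS overlapped neither treated group. The CD11b-positive difference of 21.1 points passed the test per CpG (adjusted p = 0.0466). In Ddx4 the E-box CpG at position -27 was at 84.1% ± 1.32 against 97.1% for the others. In Sycp1 the one at position -92 was at 84.9% ± 0.226 against 97.1%.

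Hormad1 has 2 E-boxes, at positions -55 and -18. Their CpGs were at 36.05%, 57.0%, 47.3% and 48.6% and at 35.3%, 50%, 55.4% and 56.8% in the PBS libraries, while the other CpGs averaged 80.5%. In CD11b-positive libraries they were at 86.0%, 79.0%, 62.8% and 56.6% and at 86.0%, 85.2%, 78.2% and 62.3%. The CpG at -18 rose by 28.6 points (adjusted p = 0.0183), with no overlap between these groups. The CpG at -55 differed by 23.9 points (adjusted p = 0.0564) and its groups overlapped by a narrow margin. The GCGGGA CpG of Hormad1, at position -94, was at 79.0% in PBS and at 91.4% in CD11b-positive cells (adjusted p = 0.0268).

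The low E-box CpG was not a feature of germline promoters alone. Under the same rule, 16 promoters of all genes had a measured E-box CpG, the germline ones included, and it was the lowest measured CpG in 11 (68.8%) and below the mean of the others in 16. The median distance to the others was -22.2 points, with a median of 16.5 measured CpGs per promoter. The GCGGGA CpG was the lowest in 0 of 5 germline promoters and 6 of 70 promoters of all genes (8.57%). In the unmethylated promoter of Ddx25, the E-box CpG was at 0.481% in PBS.

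**Figure D4:**
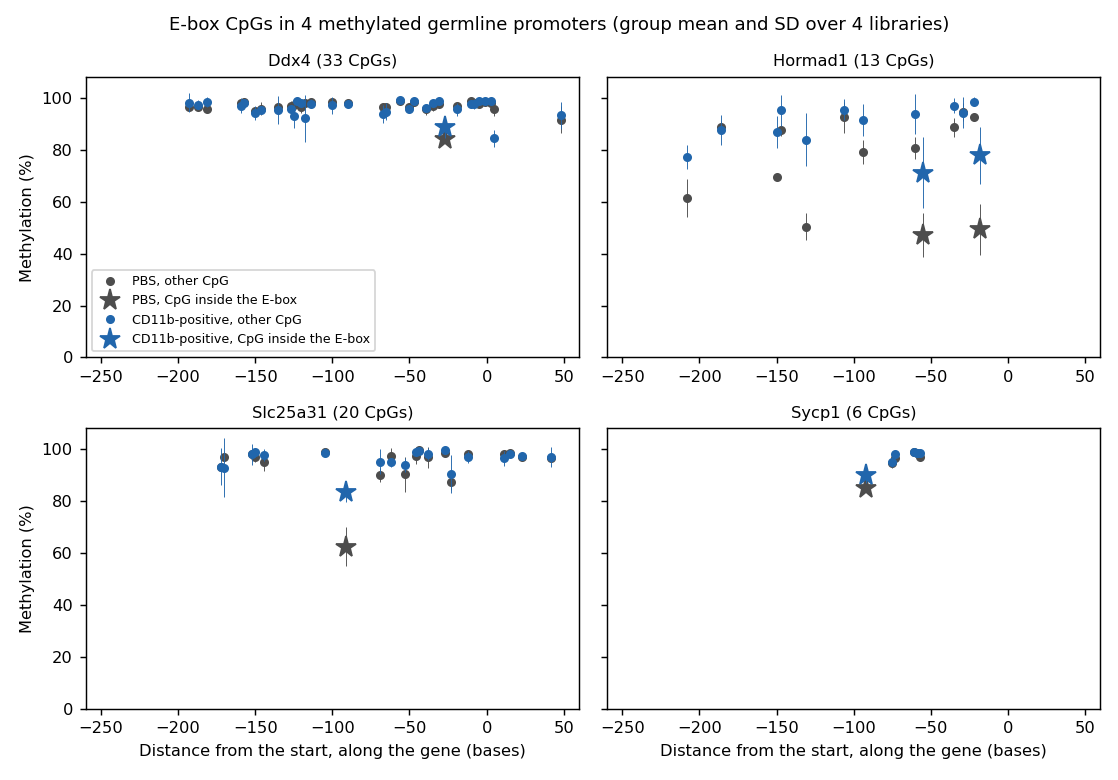
Methylation in PBS and CD11b-positive cells (percent, mean and SD of 4 libraries) of each measured CpG in the methylated promoters with a measured E-box. The CpGs inside CACGTG are marked apart from the others. In PBS the marked CpG is the lowest in Ddx4 (84.1%), Slc25a31 (62.4%) and Sycp1 (84.9%), and both marked CpGs of Hormad1 (47.2% and 49.4%) are the lowest of that promoter.

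CD11b-positive cells against PBS cells was the comparison in which germline genes passed the test. A gene was called changed where the adjusted p, from a quasi-binomial model over all genes, was below 0.05 and the group means differed by at least 10 percentage points. Over the whole gene 14 of 36 germline genes rose and 0 fell, with 18.7% of all genes called in either direction and 14.8% called higher. 30 of the 36 differences were positive, and the median difference was 5.70 points, against 1.38 over all genes. The PBS and CD11b-positive libraries did not overlap in 25 genes that were higher and in 1, Smc1b, that was lower, against 61.4% of all genes without overlap. At the start 9 of 31 rose and 0 fell, with 8.28% of all genes called and 4.16% called higher, and the groups did not overlap in 19 higher and 2 lower genes, against 28% of all genes.

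Nearly all genes that rose lay in the middle of the range in PBS. Of the 18 genes between 20% and 80% in PBS, 13 rose, against 39% of all genes in that range called in either direction. Of the 12 above 80%, 0 were called (10 at an unadjusted p under 0.05, against 341 of all 491 such genes). Of the 6 below 20%, only Spata25 rose. Among all genes, 7 rose and 21 fell of 491 above 80%, and 134 rose and 3 fell of 8527 below 20%, so calls were rare in both classes. At the start, 7 of 12 genes in the middle range rose, against 47.3% of all genes called. The direction at the start differed from that of other genes in number: of all 1751 autosomal starts in this range, 466 rose and 486 fell, with a median difference of -1.92 points, while the 12 germline starts had 7 that rose, 0 that fell and a median of 13.3 points. This contrast is a description and was not tested. Against all genes in the same 10-point bin of PBS level, 15 of the 36 genes lay above the upper quartile of the difference and 8 below the lower quartile.

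**Figure D5:**
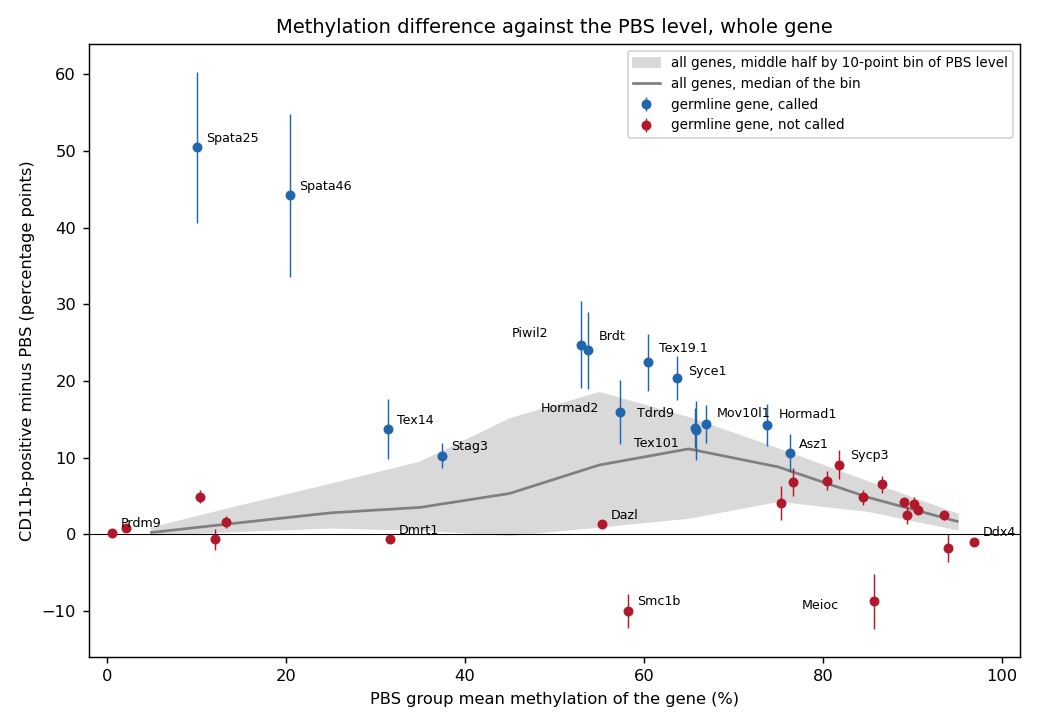
Difference between CD11b-positive and PBS cells (percentage points) against the PBS level (percent) for the 36 genes, over the median and quartiles of all genes in 10-point bins of PBS level. Spata25 (50.4 points) and Spata46 (44.2 points) lie far above the quartiles, and Smc1b (-9.97) and Meioc (-8.73) lie below them.

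The largest rises were those of Spata25 and Spata46, which belong to the genes of spermatids, sperm and the germ cell surface, where 4 of 9 were called. Beside this and the role counts below stand 14.8% of all genes called higher, and 2312 of the 7517 between 20% and 80% in PBS. Spata25, a testis protein of spermatogenesis (chr2:164827382-164828534, 5 CpGs), was at 4.48%, 11.2%, 8.36% and 16.3% in the PBS libraries. It was at 20.003%, 79.1%, 26.7% and 16.4% in the CD11b-negative and 72.3%, 80.9%, 41.3% and 47.6% in the CD11b-positive libraries. Every CD11b-positive library was above every PBS library, and CD11b-negative library 2 lay with the CD11b-positive ones. Spata25 rose by 50.4 points (standard error 9.85, adjusted p = 0.00432), and its region also reaches Zswim1. Spata46, a sperm protein (chr1:170308819-170312125, 6 CpGs), was at 8.58%, 31.0%, 22.1% and 20.3% in PBS, 27.0%, 86.0%, 23.7% and 12.7% in CD11b-negative and 68.1%, 90.4%, 50.5% and 49.7% in CD11b-positive libraries. It rose by 44.2 points (standard error 10.6, adjusted p = 0.00708), with no overlap, and all 6 of its CpGs and all 5 of those of Spata25 passed the test singly.

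Tex101, a surface glycoprotein of germ cells (chr7:24668012-24672050), went from 65.8% ± 1.72 in PBS to 71.6% ± 10.8 and 79.3% ± 7.45, and rose by 13.5 points (standard error 3.82, adjusted p = 0.0159). Its CpGs all lie in the start window. Tex14 rose by 13.7 points (standard error 3.94, adjusted p = 0.0113) over the whole gene and by 34.9 points (standard error 10.2, adjusted p = 0.0355) at the start, where the PBS libraries were at 13.8%, 35.0%, 22.4% and 29.7% and the CD11b-positive ones at 51.3%, 87.3%, 50.9% and 51.2%. The highest CD11b-positive value is that of library 2. The difference at the start was -3.40 points with Y calls as a term (adjusted p = 0.926), and 34.9 points with an adjusted p of 0.126 with all 12 libraries in 1 fit. The other 5 genes of this role, Slc25a31, Rpl10l, Dpep3, Spata16 and Zpbp2, had differences of 3.17, 3.903, 2.47, 6.98 and 1.58 points and were not called.

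In the piRNA pathway, which silences transposons in the germline, 5 of 10 genes rose. Piwil2, a piRNA-binding Argonaute (MILI) (chr14:70372477-70436898, 18 CpGs), was at 46.9%, 60.4%, 53.4% and 51.2% in the PBS libraries, 59.4%, 88.0%, 56.2% and 54.3% in the CD11b-negative and 76.2%, 91.9%, 71.0% and 71.7% in the CD11b-positive ones. It rose by 24.7 points (standard error 5.63, adjusted p = 0.00723), with no overlap. Tex19.1, which restrains transposons in germ cells (chr11:121146143-121148314, 9 CpGs), was at 57.7%, 65.2%, 61.1% and 58.0% in PBS, at 63.9%, 87.8%, 61.2% and 65.6% in CD11b-negative and at 88.1%, 89.1%, 78.5% and 76.1% in CD11b-positive libraries and rose by 22.4 points (standard error 3.75, adjusted p = 0.00413). Most of this came from 3 CpGs 2001 to 2126 bases after its start, which went from 28.0% ± 6.77 to 71.5% ± 14.2, while 6 CpGs near the start went from 76.8% ± 2.61 to 88.7% ± 4.70.

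The other 3 that rose did so in different places. Mov10l1, an RNA helicase that feeds piRNA precursors to PIWI proteins (chr15:88982891-89055152), rose by 14.4 points (standard error 2.50, adjusted p = 0.00411) over the gene. Its 5 CpGs near the start, which lie close to Mlc1, were at 82.3% ± 1.79 and 83.5% ± 0.975, and the stretch with the widest gap, 4 CpGs 33272 to 33334 bases downstream, went from 33.8% ± 6.74 to 71.7% ± 11.3. Tdrd9, a Tudor-domain helicase (chr12:111971488-112068854), rose by 13.9 points (standard error 2.59, adjusted p = 0.00428), and 29 of its 72 CpGs passed singly, all higher. Asz1, a protein of the piRNA-processing granules on mitochondria (chr6:18050964-18109061), rose by 10.6 points (standard error 2.51, adjusted p = 0.00438) over the whole gene. Its start went from 59.1% ± 3.601 to 77.3% ± 10.6 but was not called (adjusted p = 0.0522). A stretch of 22 CpGs inside the gene, 45571 to 45929 bases after the start, went from 87.6% ± 0.457 to 93.0% ± 1.25. Mael, Piwil1, Tdrd1, Ddx4 and Tex15 were not called, with differences of 4.21, 2.51, 4.11, -0.938 and -0.611 points. Without library 2 of both treated groups, Asz1 and Stag3 no longer passed and 12 genes rose.

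Among genes of the synaptonemal complex, the chromosome axis and meiotic cohesin, 4 of 8 rose. Syce1, of the central element of the complex (chr7:140777229-140787854, 4 CpGs), was at 65.3%, 65.3%, 63.3% and 60.8% in the PBS and 82.3%, 91.9%, 80.5% and 81.5% in the CD11b-positive libraries, without overlap, and rose by 20.4 points (standard error 2.86, adjusted p = 0.00378). Hormad1 and Hormad2, partner proteins of the unsynapsed axis, rose by 14.2 points (standard error 2.74, adjusted p = 0.00373) and by 16.0 points (standard error 4.19, adjusted p = 0.0102). Hormad1 (chr3:95559677-95587863) was at 69.8%, 76.4%, 74.2% and 74.9% in PBS, 74.9%, 93.6%, 75.5% and 72.9% in CD11b-negative and 89.4%, 94.1%, 84.2% and 84.4% in CD11b-positive libraries. Hormad2 (chr11:4345801-4441198) was at 53.3%, 61.0%, 57.8% and 57.4% in PBS, at 57.9%, 82.0%, 58.9% and 53.7% in CD11b-negative and at 66.7%, 84.6%, 70.8% and 71.3% in CD11b-positive libraries. In both genes the lowest CD11b-positive library was above the highest PBS library, and CD11b-negative library 2 was the highest of its group. Stag3 rose by 10.3 points (standard error 1.58, adjusted p = 0.00364), just past the 10-point threshold. With edgeR, with summed calls or with at least 20 calls per CpG, Stag3 no longer passed and Smc1b did, as lower. Sycp3, of the axial element, was just short of it, with 9.09 points (standard error 1.92, adjusted p = 0.00415), and Sycp1 and Sycp2 differed by 6.51 and -1.73 points.

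Smc1b, a cohesin subunit of meiosis (chr15:85064689-85131957), went the other way. Its 42 CpGs lie within the start window that it shares with Ribc2. It was at 60.7%, 56.2%, 59.1% and 57.0% in the PBS libraries, 57.8%, 43.3%, 58.6% and 64.6% in the CD11b-negative and 49.9%, 42.4%, 51.0% and 49.8% in the CD11b-positive ones. All CD11b-positive values were below all PBS values. The difference of -9.97 points (standard error 2.24, adjusted p = 0.00574) was just short of the 10-point threshold, and 5 of its CpGs passed singly as lower and 1 as higher. In the printed promoter it went from 40.3% ± 5.42 in PBS to 34.3% ± 14.5 and 22.0% ± 5.81.

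Of the other roles, Brdt was the 1 gene that rose. Brdt, a testis bromodomain protein that reads acetylated histones (chr5:107331116-107387061, 11 CpGs), was at 49.4%, 61.1%, 51.5% and 53.1% in the PBS, 65.5%, 90.8%, 57.8% and 57.9% in the CD11b-negative and 77.5%, 90.03%, 71.3% and 72.3% in the CD11b-positive libraries, and rose by 24.0 points (standard error 5.01, adjusted p = 0.00526), with 9 of its 11 CpGs called singly. Dmrt1, a testis transcription factor (chr19:25505618-25604328), differed by -0.635 points over the whole gene, where stretches moved in opposite directions. Its CpG-rich end was at 23.3% ± 2.83 in PBS and 14.0% ± 4.37 in CD11b-positive cells, without overlap, a difference of -9.26 points (standard error 2.603, adjusted p = 0.0343), and 8 CpGs further along the gene went from 42.1% ± 6.81 to 62.0% ± 12.03. Dmrtb1, a related factor, differed by 6.84 points and was not called.

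Recombination and meiotic entry had 0 of 4 genes called by the model, and RNA regulation 0 of 2. An unadjusted p under 0.05 was found for 3 and 2 of them, against 10807 of all 16535 genes. Meioc, which keeps germ cells in meiotic prophase (chr11:102665351-102682240), was at 85.8% ± 4.40 in PBS, 81.9% ± 8.10 in CD11b-negative and 77.0% ± 5.68 in CD11b-positive cells, a difference of -8.73 points (standard error 3.59, adjusted p = 0.0183), with overlap between the libraries. Its 17 CpGs from 738 to 840 bases after the start went from 83.8% ± 7.18 to 70.0% ± 11.03, and 10 of its CpGs passed singly as lower and 1 as higher. Spo11, the enzyme that makes meiotic DNA breaks, differed by 4.81 points, Prdm9 by 0.210 and Meiob by 0.893. Dazl differed by 1.34 points and Ddx25 by 4.88.

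Counted by CpG, 223 of the 1099 CpGs of these genes rose and 25 fell in CD11b-positive cells (22.6% called), against 16.7% of all 1052856 CpGs. Within the start windows 92 of 704 rose and 23 fell (16.3% called), and outside them 131 of 395 rose and 2 fell (33.7% called). CpGs between 20% and 80% in PBS were called in 55.8% of 346 cases, against 52% of all CpGs in that range. CpGs above 80% were called in 3.42% of 468 cases, against 3.94% of all. Below 20%, 13.7% of 285 CpGs were called, against 5.25%. The shares called in either direction were thus near those of all CpGs at the same PBS level, except in the lowest class. By direction the classes differed more. Between 20% and 80%, 180 rose and 13 fell, against 106567 and 30951 of all 264392 CpGs. Above 80%, 5 rose and 11 fell, against 3835 and 3973 of all 198215. These contrasts were not tested. No CpG of Dazl, Sycp2, Prdm9, Meiob, Piwil1, Dpep3 or Zpbp2 was called.

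These counts depended on the following settings. Counts over all genes are not given for these fits, so a loss particular to germline genes cannot be read from them. Y calls also did not overlap between CD11b-positive (23.2 to 40.0 ppm) and PBS libraries (5.33 to 18.1 ppm). When the Y calls of each library entered the fit as a term, 0 germline genes passed over the whole gene and 0 at the start, and Spata25 differed by 25.3 points with an adjusted p of 0.268. Leaving out PBS library 1 left 12 genes over the whole gene but 1 at the start, and leaving out PBS library 3 or PBS library 4 left 3 and 4 at the start. Fitting all 12 libraries together left 14 genes over the whole gene, 0 at the start and 112 called CpGs in place of 248.

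CD11b-negative cells against PBS cells gave no called germline gene. 0 of 36 genes passed over the whole gene and 0 of 31 at the start, and 0% of all genes and 0% of all CpGs were called. edgeR also called 0 germline genes. At an unadjusted p under 0.05 there were 5 germline genes over the whole gene, against 976 of all 16535 genes. At the start there were 2, against 716 of all 13705. The median difference was 2.91 points, against 0.693 over all genes, and 1.11 without CD11b-negative library 2. The libraries did not overlap in 5 genes, all higher (Spata25, Spata16, Slc25a31, Syce1 and Dazl), against 10.4% of all genes, and in 3 at the start, against 4.68%. The widest differences were those of Spata25 (25.5 points, standard error 14.9), Spata46 (16.9, 17.1), Brdt (14.2, 8.23), Piwil2 (11.5, 8.401) and Syce1 (10.5, 5.05), each with an adjusted p of 0.598 except Spata46, with 0.674. Slc25a31 and Dazl had small differences with little spread: Dazl was at 55.1%, 55.4%, 55.2% and 55.5% in PBS and 55.7%, 56.4%, 55.5% and 55.9% in CD11b-negative libraries.

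CD11b-positive against CD11b-negative cells, both from treated mice, gave 0 called germline genes over the whole gene and at the start, with 0% of all genes and 0% of all CpGs called. These counts are from the fit without a replicate block, and those with the block follow below. At an unadjusted p under 0.05 there were 4 over the whole gene, against 1105 of all 16535 genes. At the start there were 5, against 791 of all 13705. The libraries did not overlap in 2 genes over the whole gene, Mael and Dazl, against 1.75% of all genes, and in 2 at the start, against 2.09%. Mael was at 89.3%, 92.2%, 91.5% and 90.6% in CD11b-negative and 94.5%, 92.9%, 92.6% and 93.2% in CD11b-positive libraries. The widest differences were Spata46 at 27.3 points (standard error 19.08), Spata25 at 24.95 (17.5), Tex19.1 at 13.3 (6.97), Piwil2 at 13.2 (9.29) and Hormad2 at 10.2 (7.48), each with an adjusted p of 0.373.

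The result of this comparison changed with the treatment of library 2 and of the replicate numbers. Deviations from the group means correlated between same-numbered libraries of the treated groups (0.268 to 0.966), but only library 2 correlated best with its own number. Library 2 stood apart in both groups, so the deviations of the other libraries can correlate under any numbering. The correlations therefore cannot decide whether those libraries are paired, and the labels do not tie same-numbered libraries to 1 mouse. With the replicate number as a block Spata46 (adjusted p = 0.0334), Hormad2 (0.0430) and Piwil2 (0.0181) rose over the whole gene, among 640 genes called, and Spata46 at the start, among 552. With the block, 79 CpGs of the germline genes rose and 10 fell, among 70831 of all 1052856 CpGs called. Without CD11b-negative library 2, 12 germline genes rose and Smc1b fell, among 2117 genes called. Without both libraries numbered 2, 9 rose and 1 fell, among 1724. Since PBS cells are shared between the first 2 comparisons and CD11b-negative cells between the last 2, their results are not independent of each other.

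Other germline genes were taken from a list of 50, of which 36 were measured over the whole gene. 12 rose and 2 fell in CD11b-positive cells, with a median difference of 3.87 points. Rad51c was among the 12, and its start lies in the window of Tex14, so its rise is not separate from that of Tex14. Of all 16535 genes, 2453 rose and 646 fell, with a median of 1.38 points. In PBS, 19 of the 36 lay between 20% and 80%, a range in which 2312 of all 7517 genes rose and 622 fell. Those that rose included Gpat2, an acyltransferase of the piRNA pathway (42.7% ± 4.99 to 70.2% ± 9.87, adjusted p = 0.00496), Majin, which tethers meiotic telomeres to the nuclear envelope (58.0% ± 5.21 to 78.6% ± 8.59, adjusted p = 0.00823), and Dppa3 (Stella, a maternal factor of the early embryo), whose start went from 24.7% ± 5.44 to 58.9% ± 12.5 (adjusted p = 0.0180). Tdrd6, a scaffold of the chromatoid body, and Rad21l, a meiotic kleisin, fell by 17.3 and 10.1 points (adjusted p = 0.0313 and 0.0466).

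Of 20 regulators, among them the DNA methyltransferases, the TET enzymes, H3K9 methyltransferases and parts of PRC1.6, all were measured. Their differences were -0.303 to 4.31 points, and 14 had an unadjusted p under 0.05, against 10807 of all 16535 genes. The model called 0 of them. Since 15 of the 20 were below 20% in PBS, where 134 genes rose and 3 fell of 8527, this count is near the background. All 18 measured at the start were below 20% in PBS. Methylation at cell type markers was read for the same comparison, as a description, since marker expression was not measured. Higher calls over the whole gene numbered 0 of 6 pan-haematopoietic, 4 of 7 myeloid, 3 of 5 T cell, 0 of 2 B cell, 2 of 4 erythroid and 2 of 5 stromal and endothelial genes, and none was called lower. Of all genes, 14.8% were called higher over the whole gene. At the start, 3 of 4 erythroid genes rose: Rhd from 10.8% to 61.3%, Ermap from 8.08% to 56.6% and Epor from 2.96% to 33.3%, while Klf1 was at 0.741% and 1.30%. The other starts that rose were 1 of 3 pan-haematopoietic, 0 of 5 myeloid (median difference -1.25 points), 1 of 2 T cell, 0 of 1 B cell and 1 of 4 stromal and endothelial genes, against 4.16% of all starts called higher. What part the mix of cells has in the differences of the germline genes was not tested.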

How the data were processed

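Reduced representation bisulfite sequencing was done on sorted GFP-positive cells in 12 libraries, 4 per group. The deposited files hold counts: per CpG and strand, the authors' methylated and unmethylated calls, not normalised, and not pooled over libraries. The submitters' processing notes name mm10, methylKit 1.20.0, Bismark, cutadapt 2.7 and Trim Galore 0.6.4. How duplicates were handled, the conversion rate and the version of Bismark were not given in the sources used here. Copies of 1 molecule may count more than once. The method favours CpG-dense DNA, so CpG-poor parts of the genes were not measured.

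Strands were summed. A minimum of 10 calls in every library left 1052856 CpGs on autosomes and X, with 84 calls in the median. A gene's level is the mean methylated share over its CpGs, each CpG weighted equally. Each comparison used the 8 libraries of its 2 groups, in a quasi-binomial logistic model per gene weighted by summed calls. Within classes of mean level split at 5%, 20%, 80% and 95%, its dispersion was moderated as limma's squeezeVar does, with an F test and Benjamini-Hochberg adjustment over all genes, or all CpGs. A gene or CpG was called where the adjusted p was under 0.05 and the group means lay at least 10 points apart. On simulated counts for 16535 genes of CD11b-positive against PBS, 79 of 100 genes were recovered at a change of 15 points and 94 of 100 at 30 points, with 1 false call. The corresponding numbers were 61, 85 and 1 for CD11b-negative against PBS and 68, 89 and 3 for CD11b-positive against CD11b-negative. Each gene was simulated on its own, without the deviations that a library shares across genes. Genes below 5%, genes in the upper part of the 20% to 80% class and highly methylated genes were not among those changed. Several called germline genes lie at such levels, among them Hormad1, Asz1, Tdrd9, Mov10l1 and Tex101. The recovery and false-call numbers therefore do not cover shared deviations of a library, and the recovery numbers do not cover genes at these levels. Python 3.11.15, numpy 2.4.6, scipy 1.17.1 and pandas 2.3.3 were used, and edgeR 4.0.16 with limma 3.58.1 (R 4.3.3) as an alternative.

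Genes named with values are those called in any comparison, the 5 with the largest difference in each comparison, and the 3 highest and 3 lowest starts in PBS, with others given by group means or counts. The genes, lists and tests were chosen with earlier results of these data known. Same-numbered libraries were regarded as possibly paired where all 4 correlations of their deviations from the group means were over 0.1. This held for CD11b-positive against CD11b-negative (0.268, 0.966, 0.795 and 0.822) and not for the comparisons with PBS, where the fourth pair was below 0. The main counts of every comparison, this one included, come from the fit without a replicate block. The block fit is given as an alternative. Alternatives tried were other coverage minimums, at least 5 CpGs, summed calls, the gene body alone, 500 bases around the start, edgeR, all 12 libraries in 1 fit, the replicate block, Y calls as a term, and leaving out libraries.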

Additional observations from a re-analysis of the deposited data

Results flagged for a closer look

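In 32 of 201 sets of 4 values (1 gene, over the whole gene or at the start, in 1 group), 1 library lay far from the other 3 by Dixon's criterion at the 95% level. Chance gives about 1 in 20 for independent sets, which these are not. Some genes enter with the same CpGs for both regions, and a library can deviate in many genes together. The count is therefore a description only. Library 2 of the CD11b-negative group was the far value, as the highest, over the whole gene in Spata25 (79.1%), Hormad1 (93.6%), Dmrtb1 (88.0%), Stag3 (52.0%), Ddx25 (17.5%), Tex19.1 (87.8%), Rpl10l (94.8%), Tdrd9 (86.0%), Piwil2 (88.0%) and Mov10l1 (88.3%). At the start it was the highest in Spata25 (79.1%), Hormad1 (93.1%), Dmrtb1 (92.4%), Brdt (91.0%), Tex19.1 (94.8%) and Rpl10l (94.8%), and the lowest in Dmrt1 (5.74%).

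Library 2 of the CD11b-positive group was the far value, as the highest, over the whole gene in Spata16 (90.7%), Dmrtb1 (88.6%), Stag3 (51.6%), Asz1 (93.9%), Syce1 (91.9%), Tex14 (55.7%) and Tdrd9 (86.5%), and as the lowest in Smc1b (42.4%). At the start it was the highest in Dmrtb1 (93.9%), Asz1 (93.1%) and Tex14 (87.3%), and the lowest in Smc1b (42.4%). The remaining far values were Tex15 in PBS library 3 (15.5%, highest), Dmrt1 in CD11b-positive library 4 (32.0%, highest) and the start of Sycp1 in PBS library 2 (88.4%, lowest).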

How the results depend on the processing

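For CD11b-positive against PBS over the whole gene, the count of 14 stayed between 11 and 16 when 1 library was left out and between 13 and 14 under the other alternatives, except with Y calls as a term, where it was 0. At the start the count of 9 ranged from 1 to 11 when 1 library was left out, and it was 0 with Y calls as a term and 0 with all 12 libraries in 1 fit. The count of 248 CpGs became 112 with all 12 libraries in 1 fit and 0 with Y calls as a term. Counts over all genes or all CpGs under these alternatives are not given beside them. For CD11b-negative against PBS every alternative gave 0 genes.

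For CD11b-positive against CD11b-negative, the replicate block gave 3 genes over the whole gene, 1 at the start and 89 CpGs. Leaving out 1 library gave 0 to 13 genes over the whole gene and 0 to 2 at the start, with the highest counts without CD11b-negative library 2. Leaving out both libraries numbered 2, an alternative chosen after seeing the data, gave 10 and 5. With Y calls as a term, 3 differences changed sign: Hormad2 (-0.273 points) and Piwil2 (-1.61) in this comparison, and the start of Tex14 (-3.40) in CD11b-positive against PBS. The cause was not tested. Same-numbered libraries of CD11b-positive and PBS cells had correlated deviations in 3 of 4 pairs (0.284, 0.836 and 0.449, against -0.185), so the numbers were not taken as pairs, and the replicate block there gave 14 genes, 8 at the start and 268 CpGs. Coverage of at least 20 calls gave 14, 8 and 222.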
